A study of Mus musculus with 16 samples.

Results

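Expression of 10 genes of erythropoietin (EPO) receptor signalling and its feedback was followed through foetal liver erythroblasts of embryos with and without *Nprl3*. The genes were chosen by name, from a list of 11 names in which *Lnk* is the former symbol of *Sh2b3*, and are 10 of the 55416 genes in the count table. RNA-seq was performed on S1 and S3 erythroblasts, the earlier and the later of a pair of stages sorted from E13.5 foetal liver by Ter119 and CD71. The 16 libraries came from 8 embryos, each giving 1 S1 and 1 S3 library: 4 wild-type (WT, embryos 0, 1, 5 and 8), 2 heterozygous (Het, embryos 3 and 4) and 2 *Nprl3*-/- (KO, embryos 2 and 9). The KO allele is a constitutive deletion of the *Nprl3* promoter, carried by every cell of the embryo, which leaves the α-globin enhancers within *Nprl3* in place, and the line was backcrossed onto C57BL/6J. By the labels, WT embryos 0 and 8, both Het embryos and KO embryo 9 were male, and WT embryos 1 and 5 and KO embryo 2 were female.

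EPO binds its receptor on erythroid progenitors and activates the kinase JAK2, which is bound to the receptor. JAK2 phosphorylates the receptor and the transcription factors STAT5A and STAT5B, which enter the nucleus and switch on genes for survival as well as for proteins that dampen the same pathway. The signal is known to be essential for survival of foetal liver erythroblasts at the stages around S1, and the need for it falls as the cells mature.

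STAT5 is known to bind the palindrome TTCNNNGAA, in which N is any base and which reads the same on both strands. It was searched for in the 300 bases before each annotated protein-coding start (GRCm39, GENCODE release 39), where 5 of the 51 windows of the 10 genes held it, against 8.3% of all 67400 windows. The *Cish* transcript Cish-203 had 4 matches, and this was the single window of all 67400 with 4 or more. The stretches below show the matches in capitals, read 5′ to 3′ on the strand of the gene, for the genes that held one. The first pair in *Cish* (chr9:107173853-107173882, plus strand) and the pair in *Socs2* (chr10:95252761-95252790, minus strand) have the same spacing. By the annotation Cish-203, Socs2-233 and Socs2-228 are not canonical transcripts. The windows of the canonical Cish-201 and Socs2-217 held no palindrome.

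Cish-203, matches 253 and 242 bases before the start: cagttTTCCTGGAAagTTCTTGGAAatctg

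Cish-203, matches 148 and 131 bases before the start: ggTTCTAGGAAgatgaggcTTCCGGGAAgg

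Socs2-233, matches 75 and 64 bases before the start: gcggaTTCCTGGAAagTTCCTGGAAagcgg

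Socs2-228, match 230 bases before the start: ccatcaaagaTTCCAGGAAaacagcctccc

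Socs3-201, match 223 bases before the start: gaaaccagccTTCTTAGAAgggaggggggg

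Jak2-215, match 138 bases before the start: aagcggtcccTTCGCAGAAgtggtggttaa

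The second *Cish* stretch lies at chr9:107173961-107173990, that of Socs2-228 at chr10:95254140-95254169, that of *Socs3* at chr11:117860327-117860356 on the minus strand and that of *Jak2* at chr19:29228529-29228558 on the plus strand. No window of *Epor*, *Stat5a*, *Stat5b*, *Pim1*, *Erfe* or *Sh2b3* held the palindrome. *Epor* had a match to the GATA motif, searched as AGATAA on both strands and held by 11.1% of all windows and by 2 of the 51 windows of the 10 genes. The other is that of Cish-201, with the match 164 bases before the start. The match of *Epor* lies 53 bases before the start of Epor-203 (chr9:21874909-21874938, minus strand), and is shown for the receptor gene on its own strand.

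Epor-203, match 53 bases before the start: ggtggctgtagcTTATCTgtccccagcctg

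A match of letters is a description and not a measured binding site, and binding was not assayed in these data.

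Libraries held 20666044 to 37609502 counted read pairs. *Nprl3* itself had 22.6 to 32.6 CPM (counts relative to library size, scaled by TMM over the 16 libraries) in WT, 12.7 to 12.98 in Het and 0.319 to 0.676 in KO S1 libraries. At S3 it had 146 to 204 CPM in WT and 118 to 146 in Het and 107 to 111 in KO libraries, so that the deletion was visible at S1 and transcripts of the gene body were still counted at S3. The paper reports that polyadenylated, non-coding transcripts started at the enhancers confound measurement of *Nprl3*. Its droplet PCR for promoter-derived mRNA detected none in KO cells. The part of enhancer transcripts in the S3 counts was not tested. The labels' source and tissue fields name embryonic stem cells. The 5 stem cell markers listed summed to at most 0.102 CPM in any library and 11 erythroid markers to 1833 to 9646 CPM at S1 and 155131 to 203663 at S3. The S1 libraries were not alike. WT embryos 0 and 8 had 9646 and 8944 CPM of erythroid markers and 204 and 116 CPM of 11 neutrophil markers, while the other 6 S1 libraries had 1833 to 3571 CPM of the former and 1153 to 1701 CPM of the latter. They also had the most hepatoblast markers, with 396 and 361 CPM against 36.2 to 199 CPM in the others. Comparisons with WT are therefore also given without these embryos, a choice made after the marker sums were seen. Embryos 0 and 8 are the only male WT embryos, so that WT is then all female, Het against WT is wholly male against female, and in those values sex and the marker levels cannot be told apart. In bulk libraries, fewer cells of a type and less RNA per cell cannot be told apart.

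The stage comparison asks how the pathway is set as erythroblasts pass from S1 to S3. In WT, the receptor, its kinase and the feedback and target genes *Cish*, *Socs3*, *Pim1* and *Erfe* rose, while both *Stat5* genes and *Sh2b3* fell. All 10 genes were tested, and 7 rose and 3 fell at an adjusted p under 0.05 (edgeR, Benjamini-Hochberg over all genes). Among all 13514 genes tested, 30.6% rose and 35.0% fell, so a call between these stages was common. The median log2 fold change was 1.72 over the 10 genes and -0.08 over all genes. The libraries of the stages did not overlap for 6 of the genes that were higher and for the 3 that were lower, against 27.6% and 32.8% of all genes. Markers of other cells moved between the stages as well. All 10 neutrophil markers tested fell, and 10 of the 11 macrophage markers tested rose, from summed levels of 13.3 to 38.96 CPM at S1 to 38.3 to 85.5 CPM at S3. Of the 14 hepatoblast markers 7 rose and 13 lay above 0, with sums of 74.8 to 396 CPM in WT S1 and 246 to 1016 CPM in WT S3 libraries. The part of such cells in the changes of the 10 genes was not tested.

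**Figure D1:**
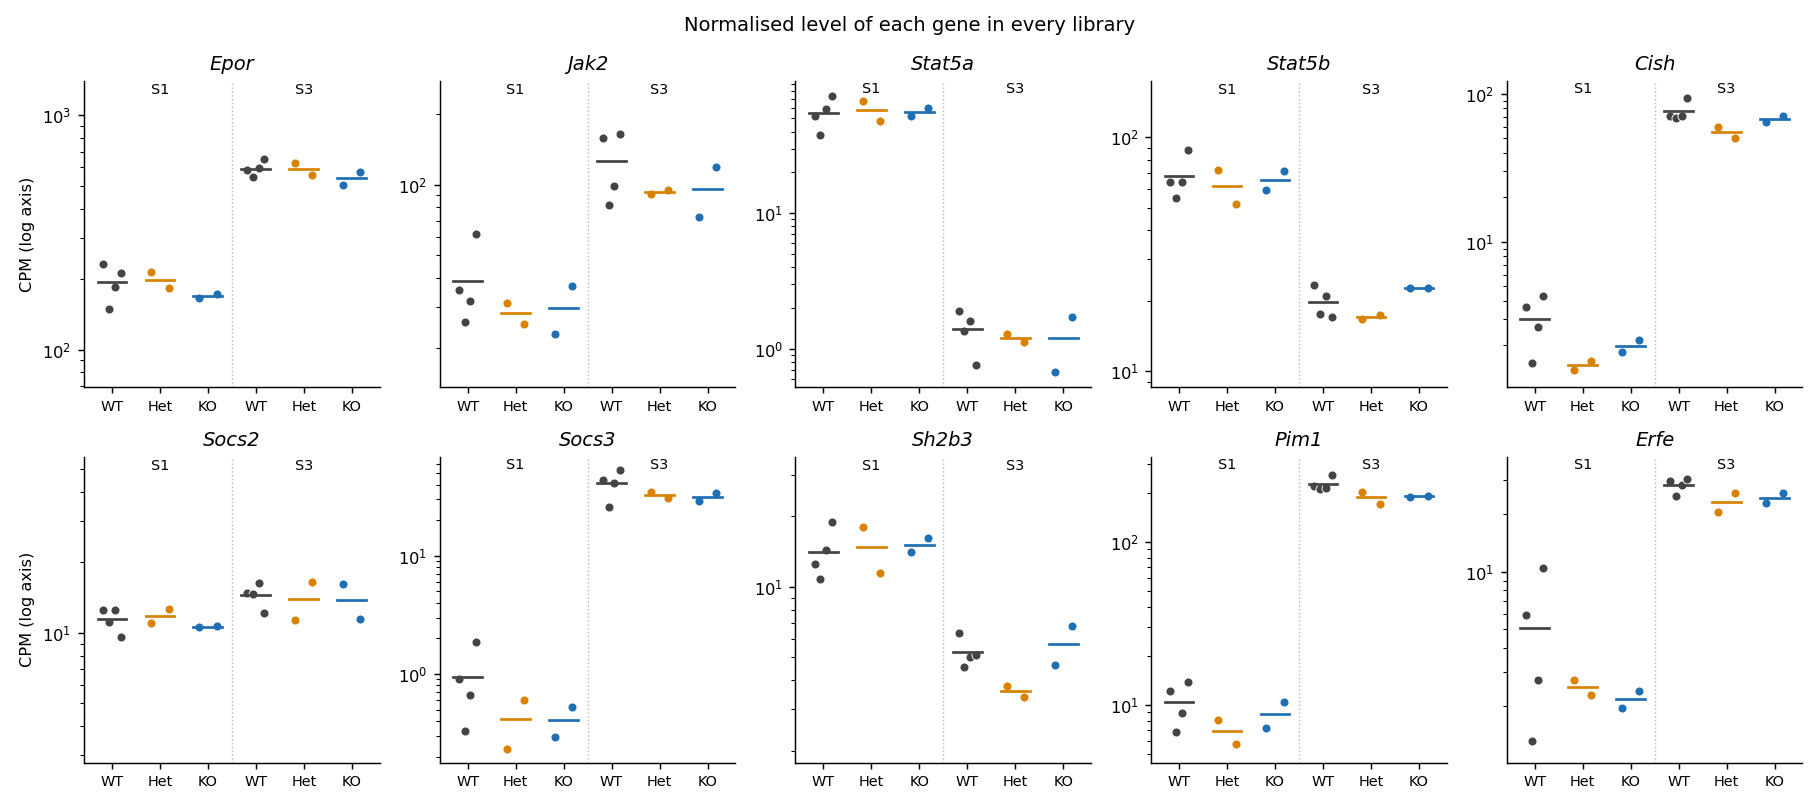
Level of each of the 10 genes in CPM on a log axis, with a point for each library and a line for each group mean, by genotype (WT, n = 4; Het, n = 2; KO, n = 2) and stage. *Stat5a* drops from 37.5 or more at S1 to 1.90 or less at S3, while *Cish*, *Socs3* and *Pim1* climb in every genotype.

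*Epor*, the receptor gene on chromosome 9 (21870193 to 21874802, minus strand, mm39), had 231, 149, 184 and 212 CPM in S1 libraries of WT embryos 0, 1, 5 and 8. At S3 the same embryos had 583, 543, 595 and 651 CPM. Every S3 library lay above every S1 library, and *Epor* rose 3.20-fold (log2 fold change 1.68, SE 0.17, adjusted p = 1.3e-05). *Jak2*, the kinase gene on chromosome 19 (29229228 to 29290480, plus strand), had 35.4, 25.9, 32.0 and 61.5 CPM at S1 and 158, 81.9, 98.6 and 165 CPM at S3. It rose 3.42-fold (log2 1.77, SE 0.33, adjusted p = 0.000786), with the S3 levels of embryos 0 and 8 well above those of embryos 1 and 5.

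The *Stat5* genes are neighbours on chromosome 11, *Stat5b* from 100671557 to 100741550 on the minus strand and *Stat5a* from 100750177 to 100775995 on the plus strand. *Stat5a* had 52.2, 37.5, 59.0 and 72.6 CPM at S1 and 1.90, 1.36, 1.61 and 0.758 CPM at S3 in WT embryos 0, 1, 5 and 8. The S3 values rest on 11 to 45 read pairs per library, and the gene fell 37.0-fold (log2 -5.21, SE 0.31, adjusted p = 5.9e-07). *Stat5b* had 64.3, 54.7, 64.4 and 88.4 CPM at S1 and 23.3, 17.6, 20.9 and 17.1 CPM at S3, and fell 3.30-fold (log2 -1.72, SE 0.19, adjusted p = 2.3e-05). Neither gene's stages overlapped.

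The share of the pair that was *Stat5a* was compared per kb of exon, since the genes differ in length. The lengths, 7133 bases for *Stat5a* and 5539 for *Stat5b*, cover all annotated exons, so the share depends on the annotation. *Stat5a* made up 38.5% ± 2.80 of the summed CPM per kb in WT S1 libraries and 5.15% ± 1.22 in WT S3 libraries (SD, n = 4). The log2 ratio of *Stat5a* to *Stat5b* was 3.56 lower at S3 than at S1. The share was 42.0% ± 0.0290 and 5.18% ± 0.565 in Het and 40.0% ± 0.621 and 3.90% ± 2.31 in KO libraries at S1 and S3 (SD, n = 2 each). All 8 S3 libraries lay at 5.96% or below and all 8 S1 libraries at 34.8% or above. The coding sequences are known to be much alike, and a read that fitted both genes was left out of the counts, so the levels of each are uncertain to that extent. The share of such reads was not measured, and the sequences were not compared here.

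**Figure D2:**
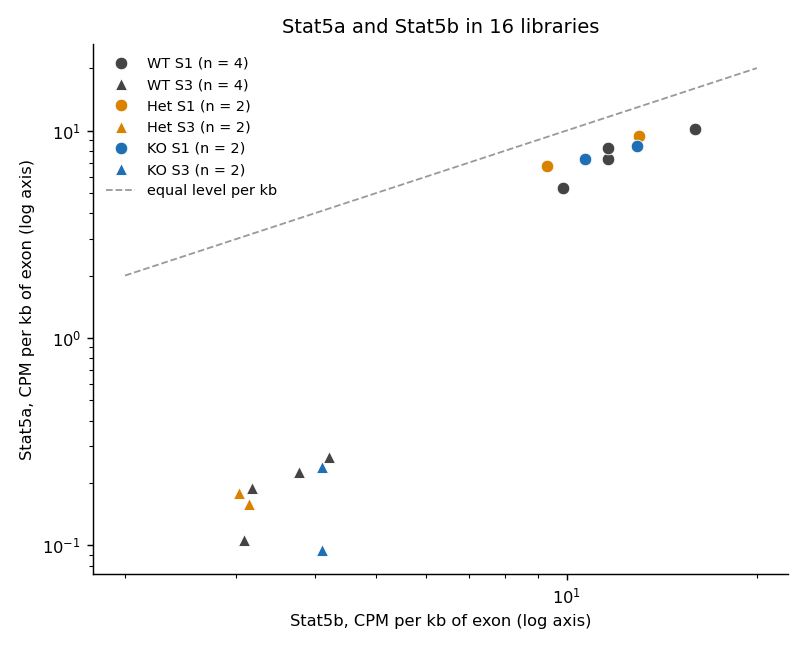
Level of *Stat5a* against *Stat5b* in the 16 libraries, in CPM per kb of exon on log axes, with circles for S1, triangles for S3, colours for genotype and a dashed line at equal levels. Every library lies below the line, and the S3 libraries lie far further below it than the S1 libraries in every genotype.

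*Cish* and *Socs3* are feedback genes of the pathway, and both rose. *Cish*, an SH2-domain inhibitor induced by STAT5 that acts back on the receptor (chromosome 9, 107173225 to 107179983, plus strand), had 3.62, 1.51, 2.67 and 4.33 CPM at S1 in WT embryos 0, 1, 5 and 8 and 70.9, 68.8, 71.1 and 93.7 CPM at S3. It rose 26.2-fold (log2 4.71, SE 0.33, adjusted p = 1.3e-06). *Socs3*, an inhibitor of JAK kinases (chromosome 11, 117856905 to 117860873, minus strand), had 0.905, 0.328, 0.662 and 1.87 CPM at S1, from 13 to 91 read pairs, and 44.2, 25.98, 41.0 and 53.1 CPM at S3. It rose 44.9-fold (log2 5.49, SE 0.50, adjusted p = 6.4e-06). Without WT embryos 0 and 8 the log2 fold change of *Socs3* was 6.13.

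*Socs2*, another inhibitor of the family (chromosome 10, 95221224 to 95253042, minus strand), stood apart from them. Its levels were 12.5, 11.1, 12.5 and 9.55 CPM at S1 and 14.8, 14.6, 16.4 and 12.1 CPM at S3, and the stages overlapped. The rise was 1.32-fold (log2 0.40, SE 0.16, adjusted p = 0.0466). Its call was lost, at log2 fold changes of 0.37 to 0.45, when embryo 0, 1 or 5 was left out (adjusted p = 0.127, 0.106 and 0.152), when embryos 0 and 8 were left out together (adjusted p = 0.116) or when low genes were kept (adjusted p = 0.191). *Sh2b3*, the adaptor LNK that restrains JAK2 (chromosome 5, 121953551 to 121975709, minus strand), had 12.5, 10.8, 14.3 and 18.9 CPM at S1 and 6.38, 4.53, 5.02 and 5.10 CPM at S3. It fell 2.57-fold (log2 -1.36, SE 0.22, adjusted p = 0.000348), the opposite direction to *Cish* and *Socs3*.

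*Pim1*, a survival kinase induced by STAT5 (chromosome 17, 29709727 to 29715086, plus strand), had 12.2, 6.83, 8.91 and 13.8 CPM at S1 and 221, 211, 213 and 256 CPM at S3. It rose 22.6-fold (log2 4.50, SE 0.25, adjusted p = 4.5e-07). *Erfe*, the gene of erythroferrone, a hormone that erythroblasts release under EPO and that lowers hepcidin (chromosome 1, 91294152 to 91301939, plus strand), had 5.96, 1.31, 2.72 and 10.5 CPM at S1 and 29.7, 24.8, 28.4 and 30.6 CPM at S3. It rose 5.76-fold (log2 2.53, SE 0.52, adjusted p = 0.00158), and the S1 libraries were spread far wider than the S3 libraries. Without WT embryos 0 and 8 its log2 fold change was 3.77 (SE 0.38), the largest shift of the rise of any of the 10 genes.

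**Figure D3:**
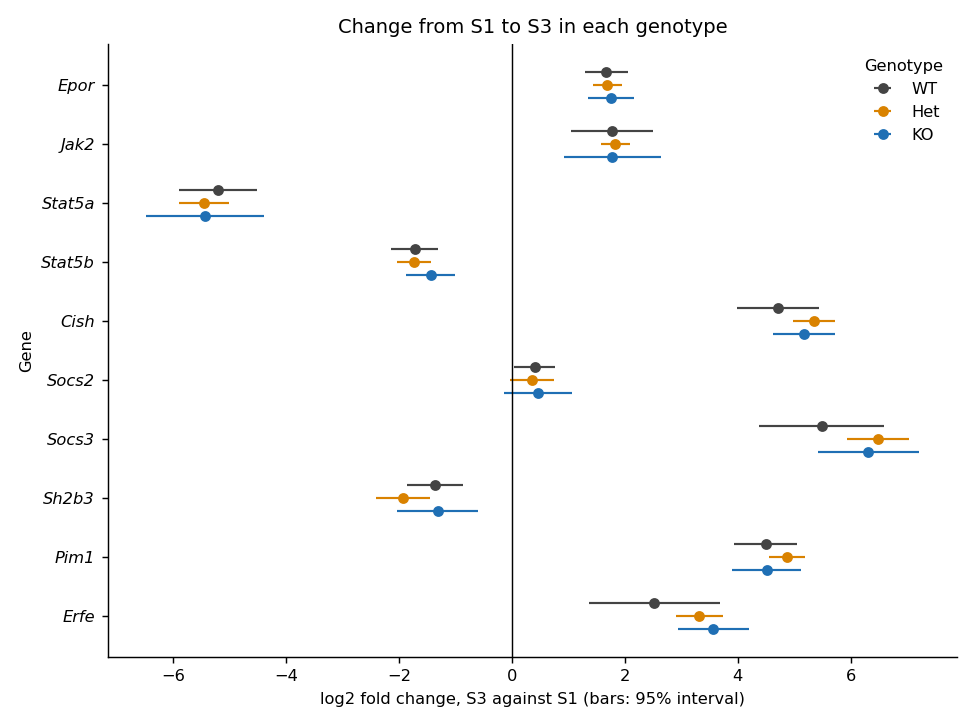
Log2 fold change of S3 against S1 for each gene in WT (n = 4 embryos), Het (n = 2) and KO (n = 2), with bars for the 95% interval from the edgeR fit. *Socs3* is highest (5.49 in WT) and *Stat5a* lowest (-5.21 in WT), and the WT estimates of *Socs3* and *Erfe* (2.53) lie below those of Het (6.48 and 3.32) and KO (6.32 and 3.57).

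The same change was measured in Het and KO embryos. In KO libraries 6 of the 10 genes rose and 3 fell, against 24.7% and 28.4% of 13446 genes tested, and in Het libraries 6 rose and 3 fell, against 36.3% and 39.6% of 13085. *Socs2* was the gene without a call in both (adjusted p = 0.164 in KO and 0.088 in Het). The log2 fold changes of *Cish*, *Socs3*, *Pim1* and *Erfe* were 5.17, 6.32, 4.51 and 3.57 in KO and 5.36, 6.48, 4.87 and 3.32 in Het. Those of *Stat5a* were -5.43 and -5.46. With 1 embryo left out, *Socs3* in Het ranged from 5.82 to 7.32 and *Stat5a* in KO from -6.17 to -5.02. The call of *Sh2b3* in KO was lost without KO embryo 2 (adjusted p = 0.0679) and that of *Jak2* in Het without Het embryo 4 (adjusted p = 0.0681), where the lone library was assumed to vary like the other groups.

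Whether the change from S1 to S3 differed between KO and WT was tested directly by an interaction term. None of the 10 genes passed it and none had an unadjusted p under 0.05, in edgeR, and DESeq2 called none of them either. Over all 13485 genes 0.00742% were called, which is 1 gene, *Nprl3* itself (log2 5.17, adjusted p = 0.000305 in edgeR). Among the 10 genes, the estimate furthest from 0 was that of *Erfe*, 1.10 (95% interval -0.70 to 2.90). Without WT embryos 0 and 8 it was -0.19.

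Levels of the 10 genes were ordered per kb of exon in WT, where the length covers all annotated exons and the order depends on the annotation. At S1 *Epor* led with 97.6 ± 17.99 CPM per kb (SD, n = 4), followed by *Stat5b* at 12.3 ± 2.59, *Stat5a* at 7.76 ± 2.05 and *Jak2* at 7.69 ± 3.12. *Pim1*, *Sh2b3*, *Erfe*, *Socs2*, *Cish* and *Socs3* followed from 3.10 ± 0.933 down to 0.326 ± 0.229. Neighbours in this order were separated by more than their SDs only between *Epor* and *Stat5b*, between *Jak2* and *Pim1* and between *Socs2* and *Cish*. At S3 *Epor* was again first with 298 ± 22.4 CPM per kb, and *Pim1* (67.1 ± 6.26) had moved to the second place. *Jak2* (25.03 ± 8.32), *Socs3* (14.2 ± 3.90), *Cish* (11.9 ± 1.83) and *Erfe* (10.1 ± 0.914) followed, with each of these 4 within the SDs of its neighbour. *Stat5b* (3.56 ± 0.527), *Socs2* (1.52 ± 0.183), *Sh2b3* (1.09 ± 0.164) and *Stat5a* (0.197 ± 0.0682) came last, each beyond the SD of the one before it.

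The genes whose profile over the 16 libraries was most like that of *Epor*, among 13485 genes, were *Rnf167*, *Fbxw2* and *Cyb5r3*, with root mean square differences of 0.0956, 0.106 and 0.110 on the log2 scale after each gene's mean was subtracted. Of the other 9 genes of the pathway *Jak2* was the nearest, at the place 850. For *Cish* the nearest were *Vopp1*, *Pim1* and *Rab3il1*, at 0.198, 0.200 and 0.200, and *Socs3* stood at the place 36.

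The comparison of KO with WT asks whether loss of *Nprl3* alters the pathway at each stage. No difference of the 10 genes passed the test at either stage. At S3, 0 of the 10 were called, against 0.559% of 11804 genes (0.457% higher and 0.102% lower), and at S1 0 of the 10 against 0.00712% of 14039. That share is 1 gene, *Nprl3* itself (log2 -5.72, adjusted p = 0.0212 in edgeR), so no gene but the deleted one was called at S1. In edgeR without a covariate none of the 10 had an unadjusted p under 0.05 at either stage. DESeq2 called none of them, with or without sex as a covariate. Macrophage markers summed to 17.96 and 33.3 CPM in KO S3 libraries, below the WT range, with 2 of 11 called lower. Erythroid markers summed to 155131 and 155322 CPM in KO and 173283 to 203663 CPM in WT S3 libraries, with all 11 log2 fold changes below 0 and none called. Hepatoblast markers summed to 111 and 269 CPM in KO and 246 to 1016 CPM in WT S3 libraries, with all 14 below 0 (median log2 -1.40) and none called. The part of these cells in the levels of the 10 genes was not tested.

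At S3, *Epor* had 505 and 573 CPM in KO embryos 2 and 9 and a log2 fold change of -0.08, with a 95% interval from -0.41 to 0.25. *Cish* had 64.6 and 70.3 CPM (log2 -0.12, interval -0.54 to 0.30), *Socs3* 29.1 and 33.8 CPM (log2 -0.33, interval -0.96 to 0.30) and *Erfe* 22.9 and 25.6 CPM (log2 -0.17, interval -0.53 to 0.20). These intervals leave room for changes of the size that their bounds state, in either direction. *Pim1* had 190 and 192 CPM, both below the lowest WT library at 211 (log2 -0.19, interval -0.52 to 0.15). It was the 1 gene of the 10 whose groups did not overlap, where 18.7% of all genes did not, and 12.1% lay lower in KO.

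The kinase gene, both *Stat5* genes and the other inhibitors had no call at S3 either. *Jak2* had 72.8 CPM in KO embryo 2 and 119 in KO embryo 9 (log2 -0.34, interval -1.11 to 0.44). The female KO library lay below both female WT libraries (81.9 and 98.6 CPM) and the male KO library below both male WT libraries (158 and 165 CPM), while both Het libraries, from males, had 91.6 and 94.4 CPM. With sex as a covariate the log2 fold change of *Jak2* was -0.32 (SE 0.11, adjusted p = 0.136), and without WT embryos 0 and 8 it was 0.19 (SE 0.26). *Stat5b* had 22.7 CPM in both KO libraries (log2 0.26, interval -0.11 to 0.64), and *Stat5a* had 0.678 and 1.71 CPM (log2 -0.17, interval -1.29 to 0.94). *Sh2b3* and *Socs2* had log2 fold changes of 0.18 and -0.01.

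At S1, 8 of the 10 estimates lay below 0, and the intervals were wider than at S3 for every gene but *Stat5a*. *Erfe* had 1.94 and 2.39 CPM in KO and 1.31 to 10.5 in WT (log2 -1.26, interval -3.07 to 0.56), *Socs3* had 0.294 and 0.528 CPM (log2 -1.20, interval -2.90 to 0.50) and *Cish* 1.79 and 2.18 CPM (log2 -0.62, interval -1.68 to 0.45). In all 3 genes the highest WT libraries were those of embryos 8 and 0, which had the most erythroid and the least neutrophil marker counts. Without these embryos the log2 fold changes were 0.12 for *Erfe*, -0.23 for *Socs3* and -0.06 for *Cish*, and 7 of the 10 estimates lay above 0. *Epor* had 166 and 173 CPM in KO (log2 -0.19, interval -0.70 to 0.32).

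**Figure D4:**
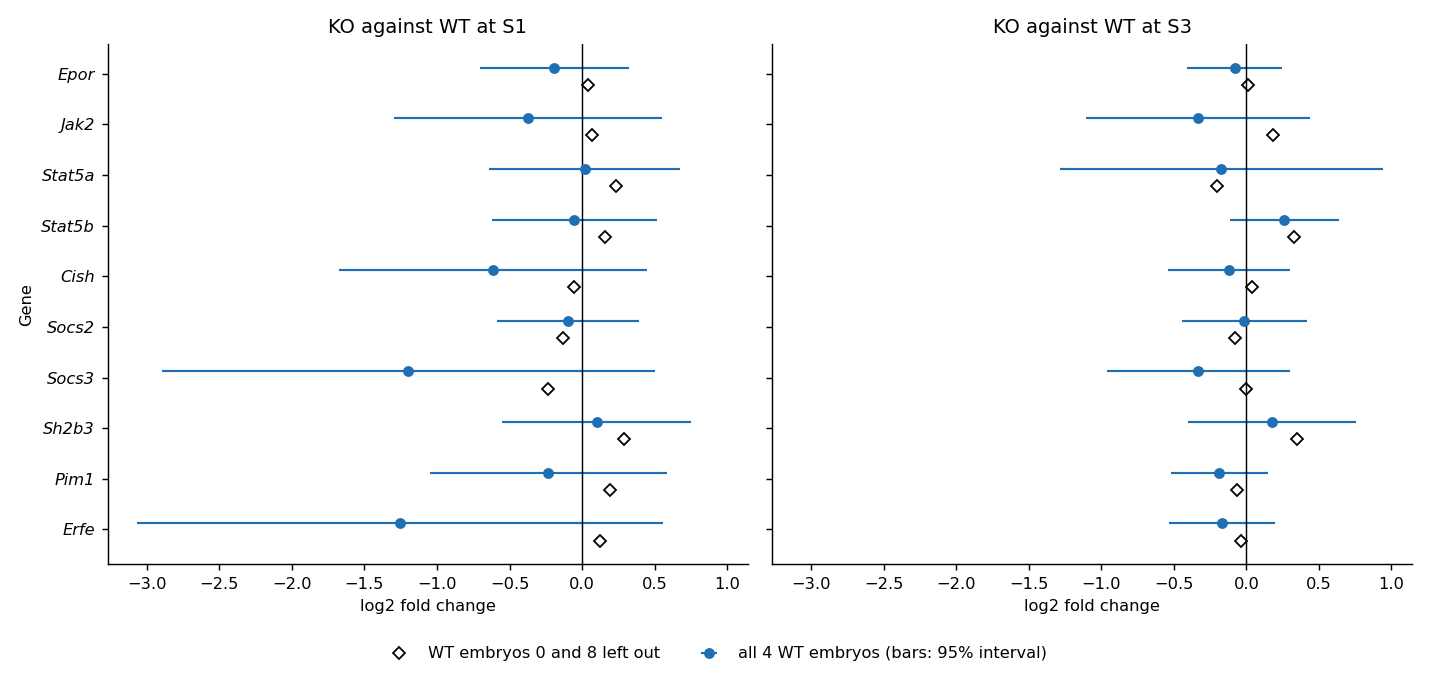
Log2 fold change of KO (n = 2) against WT for each gene at S1 and at S3, with all 4 WT embryos as filled circles with 95% intervals and with WT embryos 0 and 8 left out as open diamonds. Every interval includes 0, and at S1 *Erfe* moves from -1.26 to 0.12 and *Socs3* from -1.20 to -0.23 when these embryos are left out.

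The spread among WT embryos at S1 followed the same order in several genes. Embryo 8 was highest and embryo 1 lowest in *Jak2*, *Stat5a*, *Stat5b*, *Cish*, *Socs3*, *Pim1*, *Erfe* and *Sh2b3*, and *Epor* was lowest in embryo 1 as well. *Erfe* differed most, from 1.31 CPM in embryo 1 to 10.5 in embryo 8. Globin genes took 1.07% and 1.00% of all counts in S1 libraries of WT embryos 0 and 8, and 0.0738% to 0.305% in the other 6. The part of these differences between libraries in the levels of the 10 genes was not tested.

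**Figure D5:**
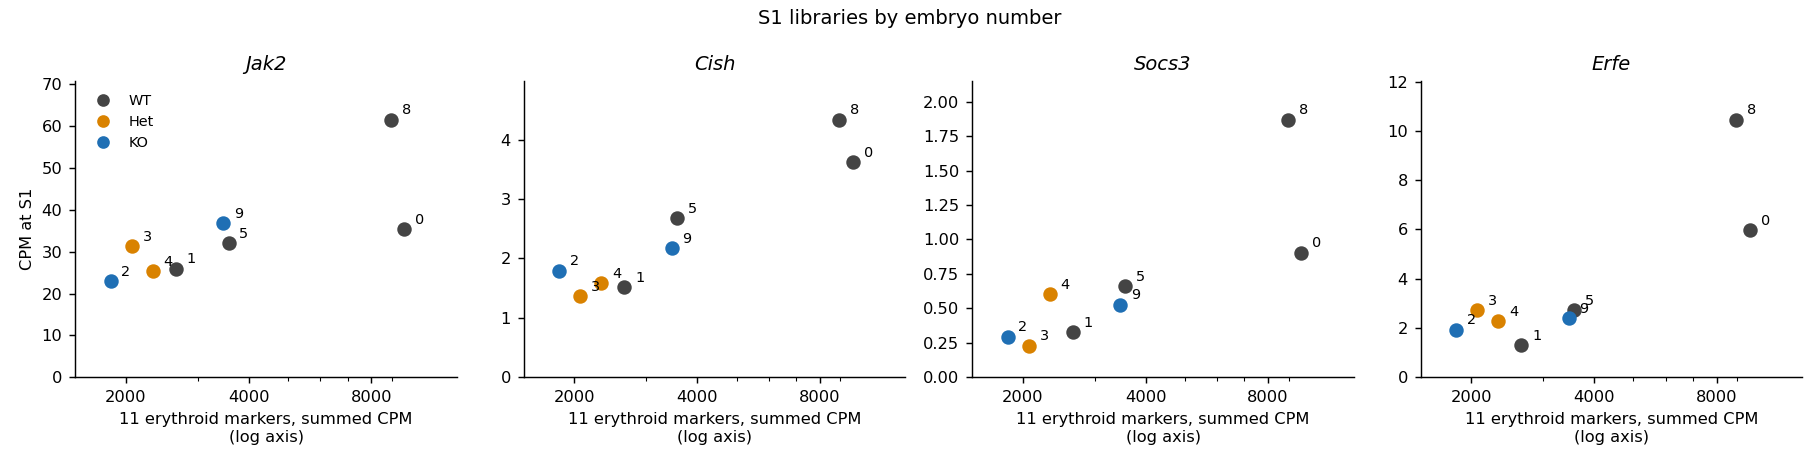
Level of *Jak2*, *Cish*, *Socs3* and *Erfe* in CPM in the 8 S1 libraries against the summed CPM of 11 erythroid markers on a log axis, with a point for each embryo, labelled by its number and coloured by genotype. WT embryos 0 and 8 stand alone on the right, with the highest *Cish*, *Socs3* and *Erfe*, and the KO and Het points lie among or beside WT embryos 1 and 5.

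The Het comparison asks whether loss of 1 allele is enough to move the pathway. No gene of the 10 was called at either stage, where 0.0% of all genes were called by edgeR at S3 and at S1. Without adjustment, 373 genes at S3 and 589 at S1 had a p under 0.05, and DESeq2 called 1 and 22. *Cish* was nearest to the threshold at both stages. It had 60.1 and 50.2 CPM in Het embryos 3 and 4 at S3, below all 4 WT libraries (log2 -0.41, SE 0.18, unadjusted p = 0.046, adjusted p = 0.901), and 1.36 and 1.58 CPM at S1, where the groups overlapped (log2 -1.06, SE 0.46, adjusted p = 0.905). *Sh2b3* and *Pim1* were also below all WT libraries at S3, so that 3 of the 10 genes were lower without overlap, against 12.5% of all genes. Hepatoblast markers summed to 172 and 223 CPM in these Het libraries and 246 to 1016 CPM in WT, and all 14 hepatoblast, 12 macrophage and 7 megakaryocyte markers tested lay below 0 in Het with none called. Their part in these levels was not tested. *Sh2b3* had 3.78 and 3.38 CPM (log2 -0.50, SE 0.23, adjusted p = 0.901). Without WT embryos 0 and 8 the log2 fold change of *Cish* was -0.26 at S3 and -0.50 at S1.

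Beyond the 10 genes, 6 lists of the wider pathway were examined, with 91 genes in all including the 10. In WT, 27 of the 86 that were tested rose from S1 to S3 and 42 fell, where 30.6% and 35.0% of all genes did. All 17 tested genes of the list of reported STAT5 or EPO targets changed, 10 upward and 7 downward. *Bcl2l1*, the survival gene of BCL-XL, rose most among them outside the 10 (log2 5.66, SE 0.43, adjusted p = 2.2e-06), from 12.7 to 45.3 CPM at S1 to 990 to 1599 CPM at S3. *Myc*, which drives growth and is shut down as erythroblasts mature, fell by 3.62 on the log2 scale (SE 0.22, adjusted p = 5.9e-07).

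Among receptors and kinases 5 genes rose and 7 fell of 15 tested, against 30.6% and 35.0% of all genes, with the rises near the former. *Kit*, the receptor of stem cell factor, with which EPO acts on early progenitors, fell from 57.9 to 120 CPM at S1 to at most 0.634 CPM at S3 (log2 -8.25, SE 0.52, adjusted p = 8.2e-07). Leaving out 1 embryo gave log2 fold changes of -9.33 to -7.79 for *Kit*. Of the other negative regulators 10 of 15 fell and 2 rose, against 35.0% and 30.6% of all genes. *Ptprc* (CD45) had a log2 fold change of -3.84 and *Ptpn6* (SHP-1), the phosphatase that switches off JAK2, of -3.62. With 1 embryo left out these ranged from -4.45 to -3.10 for *Ptprc* and from -3.71 to -3.48 for *Ptpn6*. Neutrophil markers, whose cells also express these 2 genes, summed to 116 to 1379 CPM in WT S1 and 1.11 to 4.77 CPM in WT S3 libraries, and their part in these falls was not tested.

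In the SOCS family 3 of 7 tested genes rose, against 30.6% of all genes, which were *Cish*, *Socs2* and *Socs3*, and 2 fell, against 35.0%, which were *Socs5* (log2 -3.39, SE 0.59) and *Socs6* (log2 -1.61, SE 0.20). In the STAT family *Stat6*, which carries interleukin-4 signals, fell (log2 -0.81, SE 0.23, adjusted p = 0.0111), and this call was lost without WT embryos 0 and 8 (adjusted p = 0.101). Among adaptors and the PI3K-AKT and RAS-ERK arms 6 of 26 rose and 12 fell, against 30.6% and 35.0% of all genes. *Foxo3*, a transcription factor that AKT holds in check, rose (log2 3.87, SE 0.22), and *Vav1*, an exchange factor of blood cells, fell (log2 -4.27, SE 0.28).

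Some other genes of the pathway lists were also compared between KO and WT. At S3 *Trib3*, a pseudokinase gene whose protein binds AKT, had 56.2 and 50.2 CPM in KO and 9.10 to 15.1 CPM in WT libraries (log2 2.21, SE 0.18, adjusted p = 0.00428), and rose. The 24 interferon-stimulated genes listed, a separate list, summed to 1610 and 3173 CPM in KO and 294 to 596 CPM in WT S3 libraries, and their part in these results was not tested. *Map2k1*, the ERK pathway kinase MEK1, had a log2 fold change of 0.78 (SE 0.14, adjusted p = 0.0692). It was called by edgeR with sex as a covariate (adjusted p = 0.00196), with no filter (adjusted p = 0.0156) and with all 16 libraries in the fit (adjusted p = 0.0448), and by DESeq2 (adjusted p = 0.000748). No other edgeR alternative called it, and an adjusted p of 0.224 was among them.

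At S1 none of the 86 pathway genes tested was called by edgeR without a covariate and with the filter on low counts. *Trib3* had a log2 fold change of 1.82 (SE 0.42, adjusted p = 1.00) and was called by edgeR with sex as a covariate (adjusted p = 0.0450) and by DESeq2 (adjusted p = 0.0359). *Plcg2*, a phospholipase of receptor signalling, had a log2 fold change of 0.77 (SE 0.27, adjusted p = 1.00).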

How the data were processed

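RNA of sorted erythroblasts was amplified, selected for poly(A) and sequenced by the authors. They mapped reads to mm39 with STAR 2.7.9 and deposited raw read counts per gene, made with featureCounts 1.6.4 on the Ensembl annotation, release 104. Per the file headers read pairs were counted without regard to strand, and reads in several places or genes were left out. Exons of *Pim1*, *Erfe* and *Cish* share 14.5%, 12.7% and 11.5% of their bases with other genes, where reads were not counted. The other deposited column used is the summed exon length in bases. Of 55416 genes, 54749 were matched to a GENCODE symbol, and 4 count columns match no sample analysed here and were not used. Library totals were 23331156 to 36035368 in S1 and 20666044 to 37609502 in S3 samples.

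Counts were tested with edgeR 4.0.16 in R 4.3.3 (TMM scaling, glmQLFit and glmQLFTest with package defaults, 2-sided) for genes with a mean normalized count over 10, with Benjamini-Hochberg adjustment over all genes tested and a threshold of 0.05. Intervals are at 95%. All 10 genes passed the filter in each comparison. Printed CPM are TMM-scaled over all 16 libraries. Profiles were compared on log2 CPM with a pseudocount of 0.5. Groups came from the sample titles, replicates are separate embryos, and the embryo number pairs the stages because both libraries are from 1 liver. Deviations of the S1 and S3 library of an embryo from their groups correlated over 13249 genes at 0.06 to 0.34 in WT, 0.42 in KO and 0.05 in Het embryos.

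Alternatives were DESeq2 1.42.0, RLE scaling, globin genes left out of the scaling, no filter, filterByExpr, the newer quasi-likelihood method, all 16 libraries in the fit, sex as a covariate, the embryo as a block and each embryo left out. Leaving out WT embryos 0 and 8 together was added after the data were seen. Other pathway genes were named by rule: the 2 called genes per list with the largest change between stages in WT, and between KO and WT those called or with the 3 smallest p-values. Some genes that this rule names are not reported here. The 10 genes and the lists were chosen with earlier results of these data known. The scripts were tested on simulated data.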

Additional observations from a re-analysis of the deposited data

Results flagged for a closer look

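*Cish* in WT S3 libraries had 1 sample far from the others. Embryo 8 had 93.7 CPM and the next highest library 71.1 CPM, a gap of 0.908 of the range of the group, above Dixon's 95% critical value for 4 samples. The rule was applied to 20 groups, the 10 genes in WT at each stage, and chance flags about 1 in 20 groups.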

How the results depend on the processing

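The count of the 10 genes called stayed within 1.5 times its value in all 108 alternative fits. Leaving out 1 embryo gave 9 to 10 genes in WT, 8 to 9 in KO and 8 to 9 in Het between stages, and 0 to 0 in the comparisons with WT and in the interaction. With the embryo as a replicate block, 10, 9 and 9 genes were called in WT, KO and Het and 0 in the interaction, and the block changed no call of the 10 genes. Of 1332 alternative values of single genes, 1246 kept direction and side of the threshold, 17 lost and 10 gained a call, and 59 changed sign, none of them a called value. The cause was not tested. Where leaving out 1 embryo left 1 library in a group, it was assumed to vary like the other groups.

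Without WT embryos 0 and 8 these log2 fold changes changed sign, where WT is all female. KO against WT at S3: *Epor* 0.0145, *Jak2* 0.19 and *Cish* 0.0382. KO against WT at S1: *Epor* 0.0440, *Jak2* 0.0694, *Stat5b* 0.16, *Pim1* 0.19 and *Erfe* 0.12. Het against WT: *Jak2* 0.13, *Socs2* -0.0580 and *Socs3* 0.0428 at S3, and *Stat5b* 0.0622 and *Erfe* 0.32 at S1. Interaction: *Epor* -0.0630, *Pim1* -0.29 and *Erfe* -0.19. With no filter the interaction was -0.0190 for *Jak2* and -0.00754 for *Pim1*.

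Leaving out 1 embryo turned the sign in 21 results, over these ranges. KO against WT at S3: *Epor* -0.19 to 0.0164, *Stat5a* -1.01 to 0.34, *Socs2* -0.26 to 0.20 and *Sh2b3* -0.14 to 0.44. KO against WT at S1: *Stat5a* -0.14 to 0.20, *Stat5b* -0.22 to 0.12, *Pim1* -0.54 to 0.0022 and *Sh2b3* -0.0200 to 0.30. Het against WT at S3: *Epor* -0.0111 to 0.13 and *Socs2* -0.31 to 0.27. Het against WT at S1: *Epor* -0.10 to 0.13, *Stat5a* -0.22 to 0.26, *Stat5b* -0.41 to 0.0670, *Socs2* -0.0665 to 0.14 and *Sh2b3* -0.32 to 0.33. Interaction: *Epor* -0.00087 to 0.19, *Jak2* -0.14 to 0.23, *Stat5a* -0.96 to 0.21, *Socs2* -0.17 to 0.28, *Pim1* -0.16 to 0.28 and *Sh2b3* -0.17 to 0.25.

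Over all genes, KO against WT at S3 gave 54 higher and 12 lower calls in edgeR, 94 and 20 with all 16 libraries in the fit, 219 and 137 with no filter, 285 and 262 with sex as a covariate, 143 and 115 in DESeq2, 307 and 420 in DESeq2 with sex, 9 to 41 and 0 to 5 without 1 embryo, and 5 and 0 without WT embryos 0 and 8. At S1 it gave 0 and 1, against 1 and 1 with all 16 libraries, 5 and 2 with no filter, 18 and 3 with sex, 37 and 8 in DESeq2, 117 and 51 in DESeq2 with sex, and 0 and 2 without WT embryos 0 and 8. Het against WT gave none at either stage, against 0 and 1 (S3) and 0 and 22 (S1) in DESeq2, 5 and 52 (S3) with no filter, and 5 and 3 (S3) and 4 and 1 (S1) without WT embryos 0 and 8. The interaction gave 1 and 0, against 5 and 7 in DESeq2, 2 and 1 with no filter and 2 and 0 with all 16 libraries. The depth is thinnest for *Stat5a* at S3 and *Socs3* at S1, which rest on as few as 11 read pairs per library.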
